A study of Homo sapiens with 4 samples.

Results

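The 4 ERBB receptor genes EGFR, ERBB2, ERBB3 and ERBB4 and the 4 neighbours of ERBB2 on chromosome 17q12, GRB7, STARD3, MIEN1 and PGAP3, were described in the H3K27ac peak lists of 4 cancer cell lines. The genes were taken by name from the GENCODE annotation on hg19, the build the peaks were called on, and all 8 were found among 20163 protein-coding genes. A gene was counted as marked where a peak overlapped 1 kb either side of any of its transcript starts, and peaks within 50 kb of the gene body were counted as near it. Near the 8 genes lay 83 of the 85576 peaks of COLO-205, 85 of the 75468 of DU-145, 31 of the 76093 of OVCAR-3 and 140 of the 14001 of SKOV-3.

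COLO-205 is a colon, DU-145 a prostate, and OVCAR-3 and SKOV-3 are ovarian cancer cell lines, each grown untreated in culture and profiled once by ChIP-seq with an antibody to H3K27ac, the acetylation of histone H3 that marks active promoters and enhancers. There were no replicates, so no difference between lines could be tested, and the 95% Poisson intervals given below cover counting error only. The study profiled the lines to ask which predicted regulatory mutations lie in active regions. The epithelial markers EPCAM, KRT8, KRT18 and CDH1 were all marked in COLO-205, DU-145 and OVCAR-3, whereas SKOV-3 had peaks at KRT8 and KRT18 only. Of the tissue markers, COLO-205 had peaks at 3 of 4 for colon, DU-145 at 1 of 4 for prostate, OVCAR-3 at 4 of 4 for ovarian carcinoma and SKOV-3 at PAX8 and SOX17 of the same 4. COLO-205 and OVCAR-3 had a peak at 1 of the 4 prostate markers too, and DU-145 and OVCAR-3 at 1 of the 4 for colon, LGALS4, which was higher in OVCAR-3 (29.7) than in COLO-205 (18.2). COLO-205 and DU-145 also had peaks at 2 of the 4 ovarian markers each, and PAX8 was marked in all lines, so this count did not set SKOV-3 apart from them. The blood markers PTPRC and CD3E had no promoter peak in any line.

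The ERBB receptors are tyrosine kinases of the cell surface that pair on binding ligands of the EGF and neuregulin families and signal to the RAS-MAPK and PI3K-AKT pathways. ERBB2, also called HER2, has no known ligand of its own and serves as the preferred partner of the others, while ERBB3 has little kinase activity and recruits PI3K once it is phosphorylated. In a subset of breast, ovarian and other carcinomas the 17q12 region is amplified, and the neighbours of ERBB2 are then gained with it. GRB7 is an adaptor protein that binds phosphorylated receptors, STARD3 moves cholesterol at endosomes, MIEN1 is a small protein linked to cell migration, and PGAP3 trims the lipid of GPI anchors. SKOV-3 is widely used as a line with ERBB2 amplification.

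The bases before the canonical starts of ERBB2, EGFR and ERBB4 are shown, with the bases around a high summit near each of ERBB2 and EGFR. These summits lie away from the promoters of protein-coding genes, the only genes considered for this. The results turn on whether and how strongly the places shown were marked. The sequences were read from the GRCh37 assembly, run 5′ to 3′ in the direction of the gene, and leave out bases annotated as UTR of any transcript. Capitals mark matches to 6 motifs searched on both strands, the GC box GGGCGG, the CCAAT box CCAAT, the TATA box TATAAA, AP-2 GCCNNNGGC, ETS CCGGAA and AP-1 TGANTCA. Near ERBB2 the highest such summit, at 45.2 multiples of the background level defined below, lies in bases annotated as UTR and is not printed, so the next one, at 43.9, is shown. The ERBB4 sequence was added after its values were seen.
ERBB2, chr17:37856067-37856228, plus strand: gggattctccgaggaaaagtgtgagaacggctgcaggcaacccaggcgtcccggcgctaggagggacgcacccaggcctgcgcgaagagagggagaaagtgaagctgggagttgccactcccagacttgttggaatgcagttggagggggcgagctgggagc
EGFR, chr7:55086460-55086709, plus strand: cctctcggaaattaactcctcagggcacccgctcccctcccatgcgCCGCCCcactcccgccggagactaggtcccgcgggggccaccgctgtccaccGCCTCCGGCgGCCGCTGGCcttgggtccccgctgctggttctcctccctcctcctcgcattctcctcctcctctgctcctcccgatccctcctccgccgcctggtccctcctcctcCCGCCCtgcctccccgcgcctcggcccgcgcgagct
ERBB4, chr2:213403566-213403776, minus strand: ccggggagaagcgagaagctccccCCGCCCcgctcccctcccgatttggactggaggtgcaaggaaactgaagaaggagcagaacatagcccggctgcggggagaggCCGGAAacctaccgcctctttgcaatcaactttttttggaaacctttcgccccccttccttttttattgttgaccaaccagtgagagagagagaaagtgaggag
Downstream of GRB7, chr17:37910273-37910422, plus strand: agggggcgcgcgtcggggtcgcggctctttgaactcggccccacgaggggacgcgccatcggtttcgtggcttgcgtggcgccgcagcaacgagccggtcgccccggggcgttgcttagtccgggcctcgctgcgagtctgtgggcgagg
EGFR intron 1, chr7:55201348-55201497, plus strand: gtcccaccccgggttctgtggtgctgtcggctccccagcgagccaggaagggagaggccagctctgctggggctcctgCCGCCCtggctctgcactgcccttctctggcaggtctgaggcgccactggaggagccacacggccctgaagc

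Over the full 250 bases before the start, the GC content was 73.6% at EGFR, 58.8% at ERBB2 and 57.2% at ERBB4, against a median of 63.2% before the 19862 protein-coding starts searched. EGFR held 25 CpG dinucleotides, 2 GC boxes and 2 AP-2 matches, where 59.2% of all starts held at least 1 GC box, 36.8% at least 2, and 25.6% an AP-2 match. The CCAAT box of ERBB2 lies 78 bases before the canonical start, in bases that are UTR of another transcript and are not printed, and 34.3% of starts held this motif. ERBB4 held 1 GC box and 1 ETS match, the latter at 19.4% of starts. None of these 3 windows held TATAAA, which 9.26% of starts did. The intronic EGFR summit held 1 GC box, as did 13.9% of windows of 150 bases around DU-145 summits. The window downstream of GRB7 held none of the 6 motifs, but 24 CpG dinucleotides and a GC content of 73.3%, where the median around SKOV-3 summits was 8 CpG and 63.3%.

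To compare lists of different depth, the tag pileup at each summit and the local background were solved from the deposited fold enrichment and p value, and both were divided by the lowest background of the list. This lowest value, the genome-wide background, was 1.59 in SKOV-3, 2.52 in OVCAR-3, 3.31 in DU-145 and 2.36 tags in COLO-205. Levels below are pileups in multiples of it. The median level of a list was 18.8 in SKOV-3, 10.7 in OVCAR-3, 8.15 in DU-145 and 10.2 in COLO-205, so the short SKOV-3 list held few low peaks.

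Of the 8 genes, 6 had a promoter peak in SKOV-3, 8 in OVCAR-3, 7 in DU-145 and 7 in COLO-205, where 31.6%, 60.5%, 59.8% and 51.1% of all protein-coding genes were marked. ERBB2, GRB7, STARD3, MIEN1 and PGAP3 were marked in all 4 lines, a pattern held by 25.2% of protein-coding genes. EGFR and ERBB3 were marked in every line but SKOV-3, as were 13.0% of genes. ERBB4 was marked in the 2 ovarian lines only, a pattern of 92 genes or 0.456%. With a −log10 q of at least 10, MIEN1 was no longer marked in COLO-205 nor ERBB4 in SKOV-3, which left ERBB4 marked in OVCAR-3 only, and the other calls stood. With the 14001 highest-ranked peaks of every list, only ERBB2 was marked in all 4 lines. GRB7 was then lost in OVCAR-3, STARD3 in OVCAR-3 and DU-145, MIEN1 in OVCAR-3 and COLO-205, PGAP3 in DU-145 and COLO-205 and EGFR in COLO-205. The median level of the marked members was 60.0 in SKOV-3, 37.7 in OVCAR-3, 23.0 in DU-145 and 21.6 in COLO-205, beside 24.5, 33.7, 20.5 and 18.2 over all marked genes. With canonical starts alone the OVCAR-3 direction turned, to 29.7 for the members beside 33.3 for all genes, since the peak of 44.8 that ERBB2 shares with PGAP3 was then counted for PGAP3 only, while in SKOV-3 the values were 60.0 and 24.5.

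**Figure D1:**
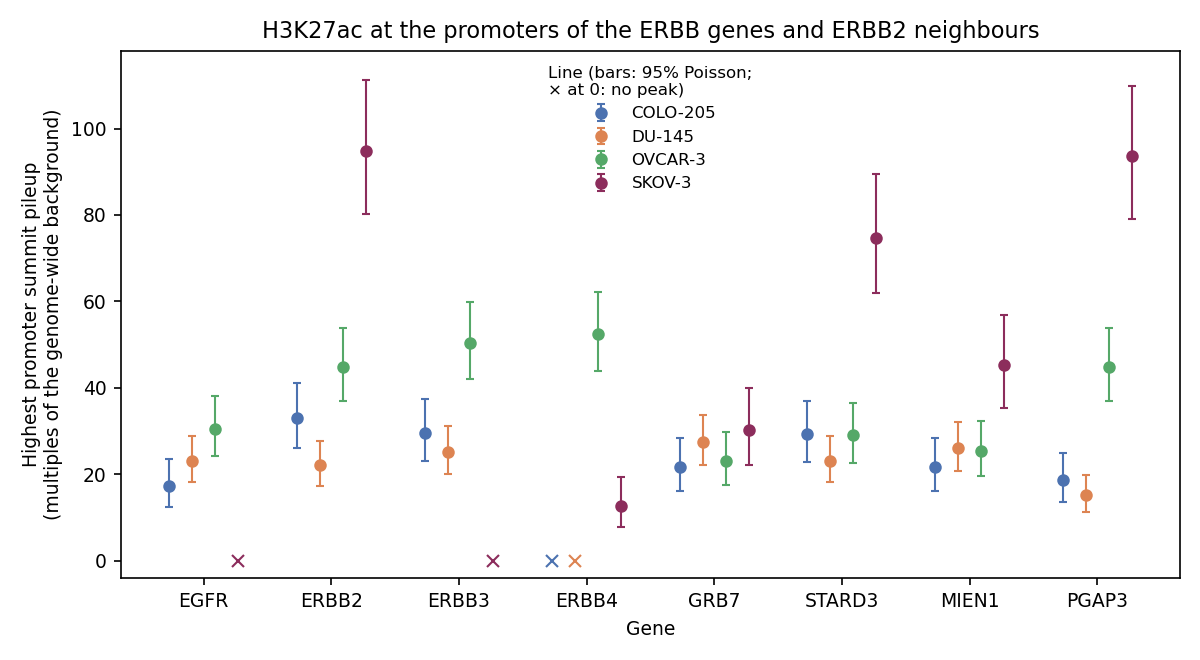
Highest H3K27ac summit pileup within 1 kb of a transcript start, in multiples of the genome-wide background of each list, for the 8 genes (x axis) in the 4 lines (colours); bars are 95% Poisson intervals and crosses at 0 mark genes without a promoter peak. SKOV-3 reached 94.8 at ERBB2, 93.5 at PGAP3 and 74.7 at STARD3 and had no peak at EGFR and ERBB3, while ERBB4 had peaks in OVCAR-3 and SKOV-3 only.

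ERBB2 was marked in all lines at 2 separate places, the canonical start at chr17:37856317 and a group of upstream starts that shares its window with the PGAP3 start at 37844310 on the other strand. The ERBB2 promoter peaks of DU-145 and OVCAR-3 were limited to these, whereas 9 peaks in COLO-205 and 16 in SKOV-3 lay within 1 kb of some annotated ERBB2 start, those at other starts reaching 25.8 in COLO-205 and 33.9 in SKOV-3. At the canonical start the level was 94.8 in SKOV-3 (80.3 to 111), 26.2 in OVCAR-3 (20.2 to 33.3), 22.0 in DU-145 (17.3 to 27.7) and 33.0 in COLO-205 (26.1 to 41.2). The SKOV-3 value lay above the other 3, whose intervals overlapped. The SKOV-3 peak spanned 37855919 to 37858714. Its fold enrichment was 19.3 and its −log10 q 135.5, and by level it ranked 30 among the 14001 peaks of the list. It was 2796 bp wide, where the peak over the same start had 512 bp in OVCAR-3, 1226 bp in DU-145 and 1130 bp in COLO-205.

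At the window shared with PGAP3 the level was 93.5 in SKOV-3 (79.1 to 110), 44.8 in OVCAR-3 (36.9 to 53.9), 15.1 in DU-145 (11.2 to 19.9) and 18.6 in COLO-205 (13.5 to 25.0). The order was SKOV-3, then OVCAR-3, then COLO-205 and DU-145, and the intervals of the last 2 overlapped. In OVCAR-3 this upstream window exceeded the canonical start without overlap of the intervals, and in COLO-205 the canonical start was the higher one. In DU-145 and SKOV-3 the intervals of both windows overlapped. Since the starts of ERBB2 and PGAP3 lie within the same peak, its level cannot be assigned to either gene.

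The other neighbours were marked in each line. STARD3 had a level of 74.7 in SKOV-3 (61.9 to 89.4), 28.9 in OVCAR-3, 23.0 in DU-145 and 29.2 in COLO-205, and MIEN1 had 45.2 (35.4 to 56.9), 25.4, 26.0 and 21.6 in the same order. For both genes the SKOV-3 interval lay above those of the other lines. GRB7 had a highest promoter level of 30.1 in SKOV-3, 23.0 in OVCAR-3, 27.5 in DU-145 and 21.6 in COLO-205, with overlapping intervals, but these summits lay 2403, 1903, 146 and 280 bp after the canonical start. Around the canonical start alone the level was 25.1 in SKOV-3 (17.9 to 34.2), 15.9 in OVCAR-3 (11.3 to 21.6), 27.5 in DU-145 (22.1 to 33.7) and 21.6 in COLO-205 (16.1 to 28.4). There the OVCAR-3 and DU-145 intervals did not overlap, and that of SKOV-3 overlapped all others.

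The block was then taken as one stretch of 210202 bp from 50 kb before STARD3 to 50 kb after GRB7, chr17:37743343-37953544. It held 135 peaks in SKOV-3, 63 in COLO-205, 12 in DU-145 and 11 in OVCAR-3. Many SKOV-3 peaks were close together, with a median gap of 331.5 bp, and merging peaks less than 350 bp apart, a step of the study's methods that the deposited lists do not carry, left 66, 51, 9 and 9. The share of the stretch under the peaks as deposited was 45.9% in SKOV-3, 13.2% in COLO-205, 5.45% in DU-145 and 2.74% in OVCAR-3. The SKOV-3 list thus placed 0.964% of its peaks and 1.79% of its bases here. Cut into windows of the same length, the rest of the genome held 14688 windows in the SKOV-3 list, of which 0 were covered as much and the fullest was covered to 20.8%. In COLO-205, 0.734% of windows were covered at least as much as the stretch, in DU-145 6.24% and in OVCAR-3 9.80%. The SKOV-3 list has 14001 peaks in all. With the 14001 highest-ranked peaks of each other list, COLO-205 held 13 in the stretch, DU-145 4 and OVCAR-3 1, beside the unchanged 135 of SKOV-3.

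**Figure D2:**
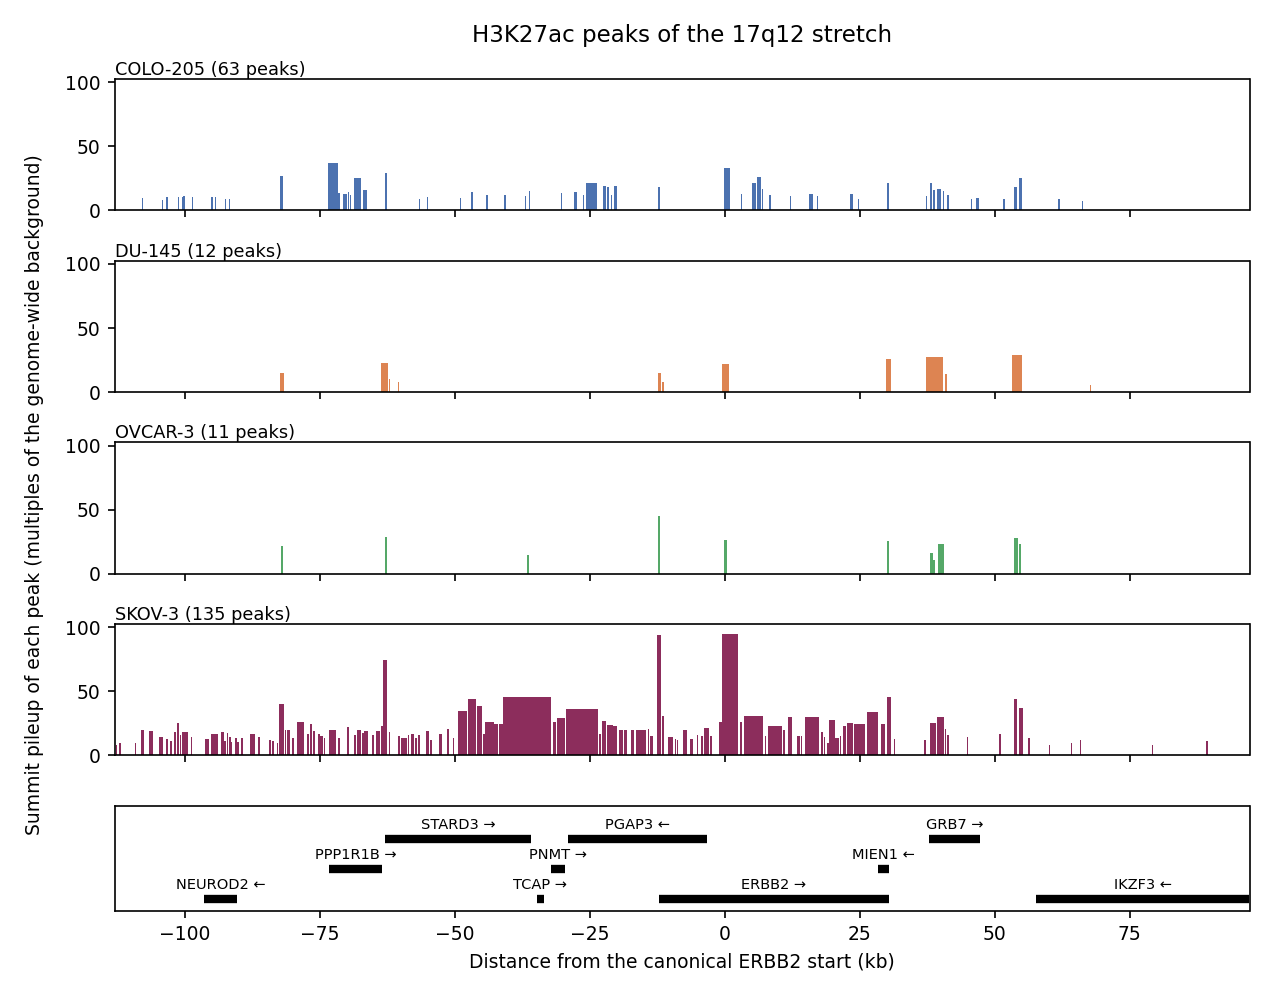
H3K27ac peaks of the 17q12 stretch by distance from the canonical ERBB2 start in kb, one panel a line, each bar a peak with its width and its summit pileup in multiples of the genome-wide background; the lowest panel shows the genes, with arrows for their strand. SKOV-3 had 135 peaks against 63, 12 and 11, and its peaks lay throughout the interval from STARD3 to MIEN1, while those of DU-145 and OVCAR-3 stood mainly at starts.

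Some SKOV-3 peaks were also wide, though not the typical one. The median width in the stretch was 405 bp in SKOV-3, 464 bp in OVCAR-3, 643.5 bp in DU-145 and 310 bp in COLO-205. Peaks over 1000 bp were 23 of 135 in SKOV-3, 1 of 11 in OVCAR-3, 5 of 12 in DU-145 and 4 of 63 in COLO-205. The widest SKOV-3 peak, 8823 bp from chr17:37815342 to 37824164, covered the last exon of STARD3 and all of TCAP, a muscle gene, with a level of 45.2. In COLO-205 the widest peak of the stretch was 1936 bp, in DU-145 3312 bp, over the GRB7 start, and in OVCAR-3 1163 bp. Of the SKOV-3 summits 65.9% lay more than 1 kb from any transcript start of a protein-coding gene, against 46.4% in its whole list. The share in COLO-205 was 60.3% against 81.3%, in DU-145 33.3% against 73.6% and in OVCAR-3 36.4% against 74.2%, so that the direction differed between SKOV-3 and the other 3. The SKOV-3 list was shorter, held few low peaks and had the lowest whole-list share, so the directions compare unlike lists. This comparison was not made at equal numbers of peaks. The median fold enrichment of the SKOV-3 peaks was 6.20 in the stretch and 5.35 in the list, but their median level was lower in the stretch, 16.95 against 18.8, as was their median local background, 2.24 against 3.11.

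Of the bases of the stretch, 50.7% were under no peak in any line, 36.4% under peaks of 1 line, 0.695% under peaks of 3 lines and 2.18% under peaks of all 4, which left 21074 bases under peaks of 2 lines. Of the bases marked in SKOV-3, 72.4% were marked in no other line, against 16.04% of the bases of its whole list. Conversely 96.2% of the bases marked in OVCAR-3 were also marked in SKOV-3, as were 83.5% of those of COLO-205 and 74.4% of those of DU-145.

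Among the other protein-coding genes of the stretch, NEUROD2, a neuronal transcription factor, and PPP1R1B, a phosphatase inhibitor also known as DARPP-32, were marked in COLO-205 and SKOV-3 only. PPP1R1B reached 37.3 in COLO-205, the highest level of that list in the stretch, and 22.0 in SKOV-3. TCAP and PNMT, which makes adrenaline, were marked in SKOV-3 only. The wide peak at 45.2 covers TCAP but ends before PNMT and reaches its promoter window only, and separate peaks at PNMT had levels of 26.4 and 29.5. IKZF3, a lymphocyte transcription factor whose gene body reaches into the stretch from the far side, had no promoter peak in any line.

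In bins of 50 kb across 1 Mb either side of the ERBB2 start, SKOV-3 had a run of 7 bins with at least 5% of their bases under peaks, from −250 to 100 kb, which held 193 peaks. Coverage rose along it from 5.07% through 16.6%, 26.8% and 47.2% to 76.4% in the bin just before the ERBB2 start, and was 53.9% in the bin after it and 6.22% in the last. Outside the run the median bin of SKOV-3 was covered to 0.474% and the highest to 5.45%. In COLO-205 the run around ERBB2 had 3 bins, from −100 to 50 kb, with 14.1% to 17.5%, and in DU-145 and OVCAR-3 it was the single bin after the start, with 11.2% and 5.81%. The fullest bins of DU-145 and OVCAR-3 were elsewhere, from −250 to −200 kb at 26.6% and from −1000 to −950 kb at 10.8%.

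**Figure D3:**
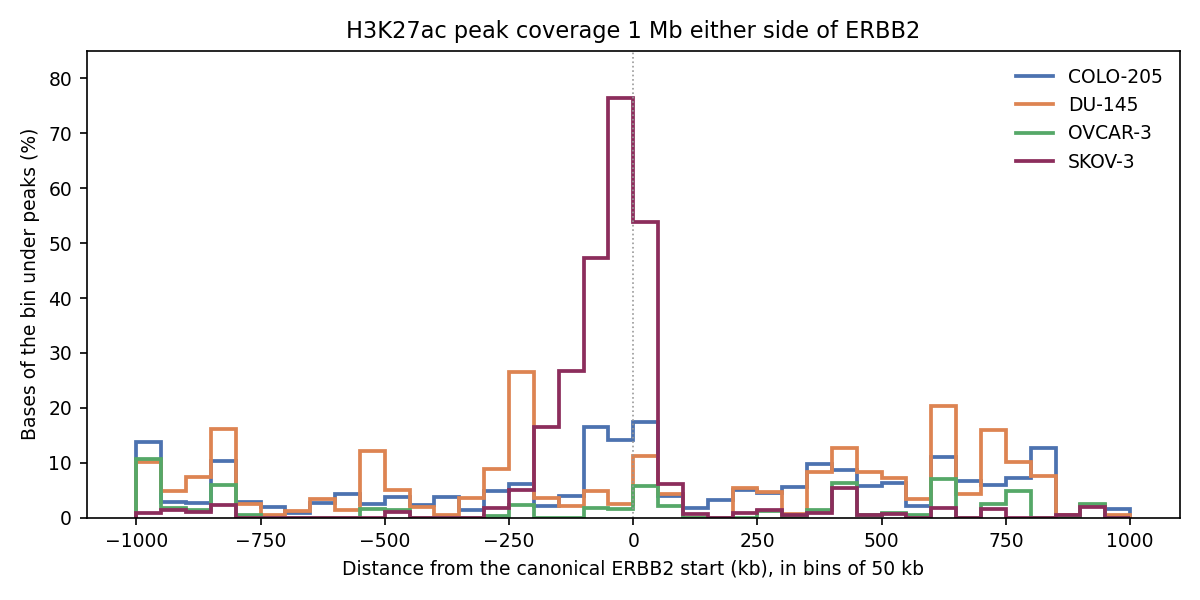
Share of bases under H3K27ac peaks, in percent, in bins of 50 kb against the distance from the canonical ERBB2 start in kb; each colour is a line and the dotted line is the start. SKOV-3 rose over 7 bins from −250 to 100 kb to a maximum of 76.4%, where COLO-205 reached 17.5%, DU-145 11.2% and OVCAR-3 5.81% in the bin after the start.

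A peak summit lay within 300 bp in all 4 lines at 6 places of the stretch. These were a site between NEUROD2 and PPP1R1B at −82.2 kb, the starts of STARD3, PGAP3, ERBB2 and MIEN1, and the site downstream of GRB7 at 54.0 kb whose sequence is shown above. The median level at these places was 60.0 in SKOV-3, 24.1 in COLO-205, 22.5 in DU-145 and 27.2 in OVCAR-3. On the log2 scale SKOV-3 was higher by a median of 1.30 than COLO-205, 1.57 than DU-145 and 0.98 than OVCAR-3, and it was the highest line at each of the 6 places. At the 3925 places elsewhere in the genome with a peak in all lines, the medians of these differences were 0.26, 0.16 and −0.75, with a 5th to 95th percentile range of −0.50 to 1.00, −0.64 to 1.03 and −1.69 to 0.35. Some of the 6 places lay inside these ranges, since 22.6% of places elsewhere had a larger difference from COLO-205 than the site at −82.2 kb, and 11.1% and 19.9% a larger one from DU-145 than MIEN1 and the site downstream of GRB7. The difference was largest at the PGAP3 start against COLO-205 and DU-145, 2.33 and 2.63, and at the ERBB2 start against OVCAR-3, 1.86.

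The local backgrounds at these places nearly coincided. At the 6 places its median was 5.21 multiples of the genome-wide background in SKOV-3, 5.09 in COLO-205, 5.13 in DU-145 and 5.28 in OVCAR-3, and the median log2 differences of SKOV-3 from the others were 0.06, 0.05 and −0.01. Backgrounds nearly coincided at matched summits across the genome too, so this is not particular to the stretch. Which control each list was called against, and whether it was the same one, is not given in the sources used here, and DNA copy number was not analysed here. More acetylation per copy and more copies of the stretch cannot be told apart in these values, and neither can they for the count of the SKOV-3 peaks and the width of the widest ones.

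**Figure D4:**
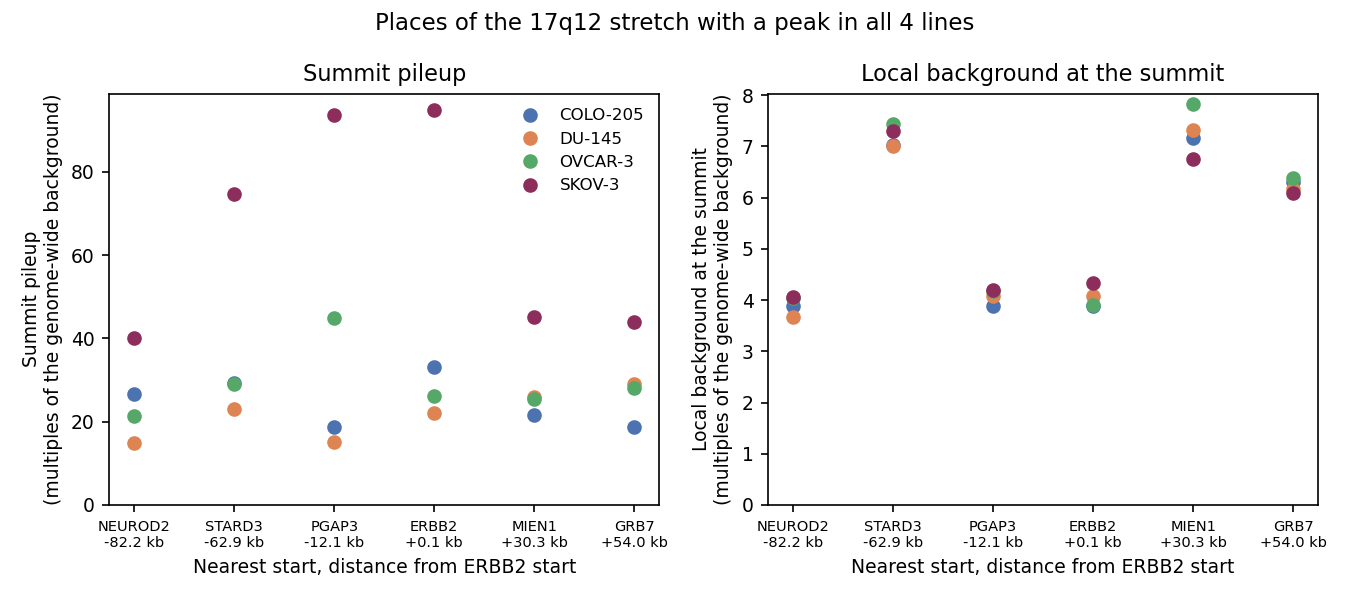
Summit pileup (left) and local background (right), both in multiples of the genome-wide background of each list, at the 6 places of the stretch with a peak in all 4 lines, named by the nearest start and the distance from the ERBB2 start in kb. SKOV-3 was highest at every place in the left panel, up to 94.8, while the 4 backgrounds of a place lay close together in the right panel, between 3.66 and 7.83.

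EGFR, the receptor of EGF and TGF-alpha, was marked at its start, chr7:55086710, with a level of 17.4 in COLO-205 (12.5 to 23.5), 23.0 in DU-145 (18.1 to 28.7) and 30.5 in OVCAR-3 (24.1 to 38.2). The intervals of COLO-205 and OVCAR-3 did not overlap, and that of DU-145 overlapped both. OVCAR-3 levels also ran higher than those of COLO-205 at places elsewhere shared by all lines, with medians of 44.4 and 21.2. Each summit lay downstream of the start, by 489 bp in OVCAR-3, 879 bp in DU-145 and 876 bp in COLO-205. SKOV-3 had no peak there. At the local backgrounds of the other lines, a SKOV-3 summit of 19 to 23 tags, a level of 11.9 to 14.4, would have met the lowest p value of its list, so a level of 17.4 would have been listed.

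The lines also differed in the rest of the EGFR locus. Within 50 kb of the gene body DU-145 had 51 peaks over 7.55% of the window, COLO-205 8, OVCAR-3 7 and SKOV-3 1. Of all protein-coding genes 15.2% were covered as much or more in DU-145, and 43.4% in COLO-205 and 51.6% in OVCAR-3 were at or above the EGFR share there of 1.19% and 1.16%. Most DU-145 peaks were intronic, 40 of 51, and of these 31 had their summit in the first intron, which is 122.9 kb long. The median level of these 31 was 7.85 and the lowest 6.04. Of the 51 peaks, 43 overlapped no peak of the other lines, as did 62.3% of all peaks of the DU-145 list. With a −log10 q of at least 10, 23 peaks remained near EGFR in DU-145, 5 in OVCAR-3, 1 in COLO-205 and 0 in SKOV-3, and with the 14001 highest-ranked peaks of every list the counts were 9, 1, 0 and 1.

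Away from the promoter, DU-145 had a pileup of 76 tags, as at the promoter itself, at a peak of 1646 bp in intron 1, 114.7 kb after the start, and again 76 tags at a site 236.2 kb after it, downstream of the gene. The highest fold enrichment in the DU-145 locus, 10.4, was at −33.2 kb, chr7:55053329-55053789, where the local background was low. The intronic peak is where SKOV-3 had its one peak at EGFR, chr7:55200892-55201144, with a level of 17.6. A place 67.6 kb into the gene was marked in 3 lines, at 13.1 in COLO-205, 15.1 in DU-145 and 21.0 in OVCAR-3. The downstream site was shared by DU-145 and OVCAR-3, the latter at 17.1.

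**Figure D5:**
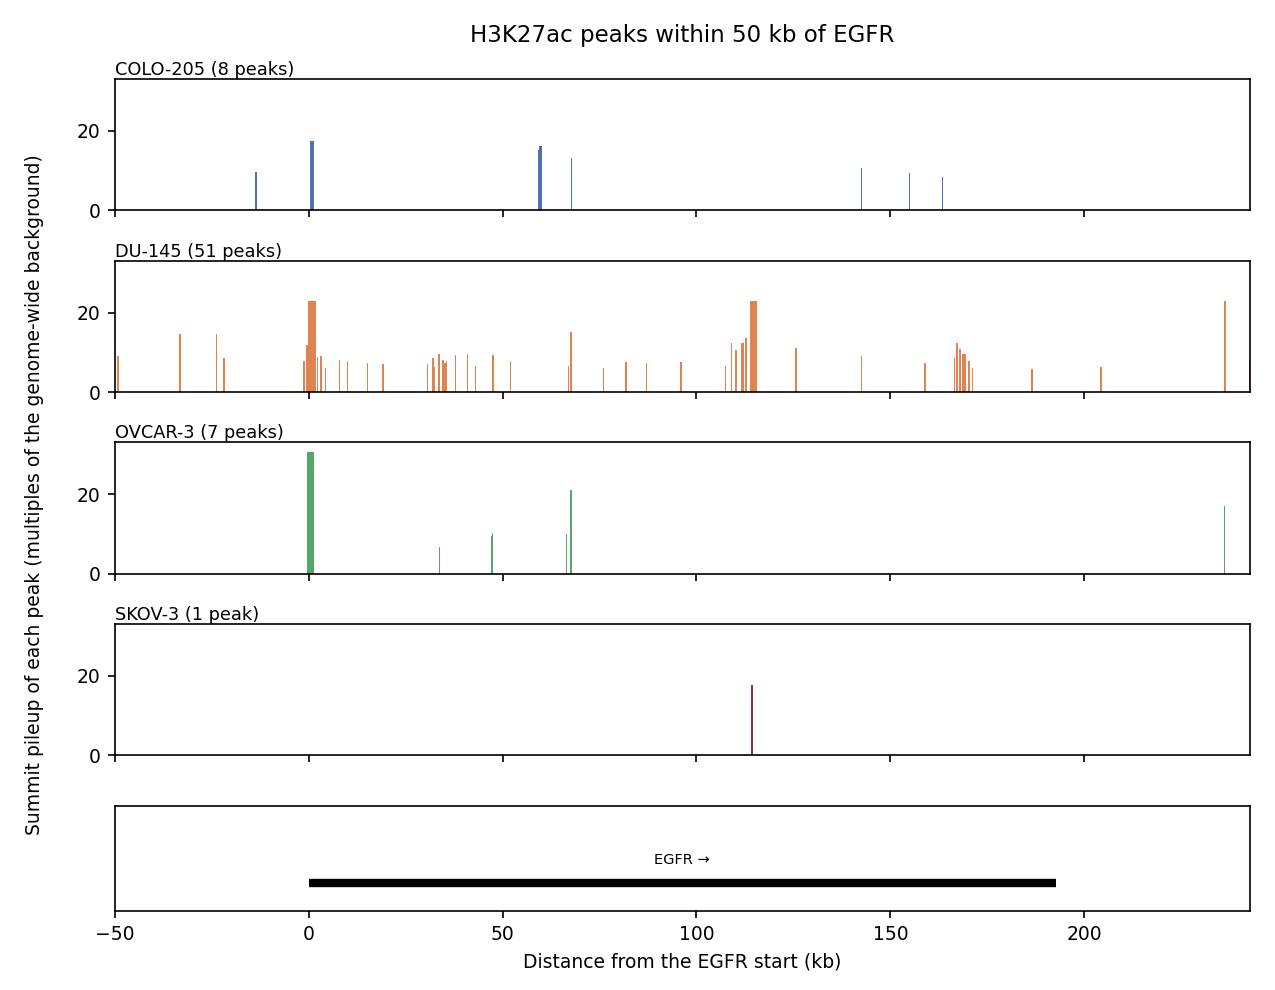
H3K27ac peaks within 50 kb of EGFR by distance from its start in kb, one panel a line, each bar a peak with its summit pileup in multiples of the genome-wide background; the lowest panel shows the gene body. DU-145 had 51 peaks spread through the gene and its flanks, COLO-205 8 and OVCAR-3 7, and SKOV-3 had 1 in intron 1 and none at the start.

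ERBB3, the neuregulin receptor that recruits PI3K, had a level of 29.6 in COLO-205 (23.1 to 37.4), 25.1 in DU-145 (20.0 to 31.1) and 50.4 in OVCAR-3 (42.0 to 59.9) around its canonical start at chr12:56473949. OVCAR-3 lay above the other 2, whose intervals overlapped. OVCAR-3 levels also ran higher at places elsewhere shared by all lines, with a median of 44.4 against 21.2 in COLO-205 and 23.3 in DU-145. In COLO-205 the start fell between a peak that ended at 56473491 and a peak that began at 56474049. In DU-145 it fell between peaks that ended at 56473906 and began at 56473976, and in OVCAR-3 one peak of 1751 bp, with a fold enrichment of 12.4, spanned the start. SKOV-3 had no peak there. At the local backgrounds of the other lines, a level of 11.9 to 14.4 would have been listed, and the lowest level of these lines was 25.1. The 3 SKOV-3 peaks within 50 kb lay at the starts of RPS26, a ribosomal protein gene, PA2G4 and MYL6B, with levels of 20.7 to 22.6. Each of these was also marked in DU-145 and OVCAR-3, and those at RPS26 and PA2G4 also in COLO-205. Away from all promoters of protein-coding genes COLO-205 had 4 peaks, DU-145 7, OVCAR-3 2 and SKOV-3 0 near ERBB3.

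ERBB4, a second neuregulin receptor with a gene of 1163124 bp on chromosome 2, was marked by a single peak in OVCAR-3 and a single peak in SKOV-3. The OVCAR-3 peak, chr2:213400996-213403978, was 2983 bp wide and had a fold enrichment of 22.0 and a level of 52.3 (43.8 to 62.1). That of SKOV-3, chr2:213402718-213403044, lay inside it, was 327 bp wide and had a fold enrichment of 4.96 and a level of 12.6 (7.67 to 19.4). Their summits stood 768 and 734 bp downstream of the start. The SKOV-3 peak was low in its list, where 76.1% of peaks were higher, and its −log10 q was 7.25. DU-145 had no peak within 50 kb of ERBB4, and COLO-205 had 2 in introns, with levels of 7.62 and 8.04. At the local backgrounds of the ovarian lines at the ERBB4 start, a level of 6.77 in COLO-205 or 6.04 in DU-145 would have been listed.

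By the Euclidean distance over the 4 lines of log2(1 + highest promoter level), the protein-coding genes most like EGFR were KMT5C and AC020922.1, which had the same values, and TMEM109. Those most like ERBB2 were PANK2, STARD3 and UBE2S. PANK2 had levels of 61.5 in SKOV-3 and between 26.3 and 44.02 in the others, and the distance of 0.67 to ERBB2 was larger than any distance of the nearest genes of the other receptors. H2AZ2, HELZ and CTDSPL2 were nearest to ERBB3, and ADAMTS1, SLC25A53 and TMTC1 to ERBB4. ADAMTS1, at a distance of 0.24, had 44.4 in OVCAR-3 and 13.2 in SKOV-3.

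Of 11 ligand genes, 3 had a promoter peak in SKOV-3, 6 in OVCAR-3, 7 in DU-145 and 6 in COLO-205. These shares of 27.3%, 54.5%, 63.6% and 54.5% were near those of all protein-coding genes, 31.6%, 60.5%, 59.8% and 51.1%. TGFA, a ligand of EGFR, and BTC, which binds EGFR and ERBB4, were marked in all 4 lines. TGFA varied little, from 18.6 in OVCAR-3 to 22.0 in SKOV-3, while BTC reached 48.0 in OVCAR-3 and 14.4 to 19.5 in the others. The neuregulin gene NRG1 was marked in DU-145 at 11.5, in OVCAR-3 at 23.0 and in SKOV-3 at 15.7. HBEGF was marked in COLO-205 and DU-145 only, at 13.5 and 18.1, as was NRG4, at 8.89 and 10.9. NRG2 and EREG were marked in the 3 lines other than SKOV-3, NRG2 at 14.8 to 19.4 and EREG at 5.55 to 14.2. EGF was marked in OVCAR-3 only, at 12.3, and AREG, EPGN and NRG3 had no promoter peak in any line.

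Of 10 negative regulators, 7 were marked in SKOV-3, 10 in OVCAR-3, 8 in DU-145 and 8 in COLO-205, where the shares of all protein-coding genes were 31.6%, 60.5%, 59.8% and 51.1%. ERRFI1, an inhibitor of the receptor kinases also called MIG6, was marked in all 4 lines, at 76.1 in OVCAR-3 and between 20.7 and 22.0 in the others. CBL, the ubiquitin ligase that sends EGFR to degradation, had 40.2 in SKOV-3, 44.8 in OVCAR-3, 32.6 in DU-145 and 19.9 in COLO-205. SPRY1, SPRY2, SPRY4, SPRED1 and DUSP6, feedback inhibitors of RAS-MAPK signalling, were marked in all lines, SPRY2 most in COLO-205 at 40.6 and DUSP6 most in OVCAR-3 at 49.2. LRIG1, a membrane protein that lowers receptor levels, and CBLB, a relative of CBL, were marked in OVCAR-3 only, at 25.8 and 54.3. RNF41, the ubiquitin ligase of ERBB3, was marked in 3 lines at 13.5 to 32.9, with no peak in SKOV-3.

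Of 20 signalling genes downstream of the receptors, 17 were marked in SKOV-3, 20 in OVCAR-3, 19 in DU-145 and 16 in COLO-205. GAB1, BRAF and SRC had no promoter peak in SKOV-3, GAB1, NRAS and MAPK3 were among those with none in COLO-205, and SRC had none in DU-145. Over the 41 genes of the 3 lists, 65.9% were marked in SKOV-3, 87.8% in OVCAR-3, 82.9% in DU-145 and 73.2% in COLO-205, beside the 31.6%, 60.5%, 59.8% and 51.1% of all genes. The median level of the marked genes was 23.2, 37.7, 23.1 and 20.7 in the same order. In SKOV-3 this was below the 24.5 of all its marked genes, whereas that of the 6 marked members was 60.0. Of these 6, only ERBB4, at 12.6, lies outside the 17q12 stretch.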

How the data were processed

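H3K27ac ChIP-seq peaks of SKOV-3, OVCAR-3, DU-145 and COLO-205 were analysed, with 1 library per line as labelled. The authors mapped reads to hg19 with Bowtie2 2.1.0 and called narrow peaks per library with MACS2 2.1.0.20150603 at a q-value below 0.001; their later merging of peaks less than 350 bp apart is not in the deposited lists. The deposited columns are a score, a fold enrichment, which is a ratio over the local background, −log10 p, −log10 q and the summit position, none of them scaled between libraries. Sequencing depth is unknown here. Pileup and local background were solved from the fold enrichment and −log10 p under MACS2's Poisson model within 0.001, in at least 99.9% of peaks of each list, and the solver was tested on simulated data. Genes came from GENCODE 44 lifted to GRCh37 and sequence from GRCh37. Overlap meant at least 1 shared bp, and no test was made between lines. The members and lists were chosen with earlier results of these data known. Named were all members, the protein-coding genes of the stretch, all ligands and negative regulators, signalling genes unmarked in COLO-205, DU-145 or OVCAR-3 (BRAF, unmarked in SKOV-3 alone, was added after its values were seen), and the 3 genes most like each receptor, apart from some items not reported here. Alternatives were other thresholds, peak numbers, merging and windows; the canonical start alone was added after seeing the data. Python 3.11.15, numpy 2.4.6, pandas 2.3.3, scipy 1.17.1 and matplotlib 3.10.9 were used.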

Additional observations from a re-analysis of the deposited data

How the results depend on the processing

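Of 104 alternative values for 20 results, 88 stayed within 1.5 times the value given, or within its Poisson interval, and 16 moved. The 88 include values that were fixed beforehand, since the 14001 highest-ranked peaks of SKOV-3 are its whole list. Removing low-ranked peaks was also unlikely to touch the highest summit of the stretch. With the 14001 highest-ranked peaks of every list, the promoters with a peak fell to 4 in COLO-205 and 5 in OVCAR-3, the peaks within 50 kb of the 8 genes to 17 in COLO-205, 20 in DU-145 and 9 in OVCAR-3, and the bases of the stretch under peaks to 11177 in COLO-205, 7404 in DU-145 and 333 in OVCAR-3, where 27665, 11460 and 5750 were found with all peaks. A −log10 q of at least 10 left 25 peaks near the genes in COLO-205, 45 in DU-145 and 86 in SKOV-3, 14140 bases of the stretch in COLO-205, and 17 marked pathway genes in SKOV-3. Merging peaks less than 350 bp apart left 71 peaks near the genes in SKOV-3. Without the flanks, the stretch held 16701 bases under peaks in COLO-205, and with flanks of 200 kb it held 32587 in DU-145. No paired analysis was possible because each line has a single library. The smaller number of peaks in the SKOV-3 list limits what an unmarked promoter there can show. At the lowest local background of the other lines, a level under 11.9 at EGFR or ERBB3 could not have been listed. The SKOV-3 background at these promoters was not observed.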

Other observations

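Local backgrounds were nearly the same in all lists. Where summits of a pair of lists lay within 50 bp of each other, the log2 ratio of the backgrounds, each in multiples of its own genome-wide background, had a 5th percentile of −0.20 or higher and a 95th percentile of 0.18 or lower in each of the 6 pairs of lines, with 3341 to 10610 summits a pair. Within the 17q12 stretch, the largest median difference of a pair was −0.08 on the log2 scale.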
